A study of Mus musculus with 6 samples.

Results

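The 51 genes described here encode the machinery that copies chromosomal DNA and part of the enzymes that supply its building blocks. They were taken as a list of gene symbols by their function, with earlier results of these data known. They were followed in mouse neuro2a (N2a) cells, a neuroblastoma line, after knockdown of the transcription factor NF-Y. All 51 had a probe on the array, among 16490 genes with a tested probe. In the control group (3 arrays) the cells received an empty vector. In the knockdown group (3 arrays) they were transfected with plasmids that express miR RNAi hairpins for both NF-YA and NF-YC. Total RNA was prepared 2 days after transient transfection and hybridized to one-colour Agilent arrays, 1 array per sample. Both vectors share the pcDNA backbone, which also encodes a green fluorescent protein. Since the control vector carries no hairpin, expression of a hairpin and loss of NF-Y cannot be told apart in these arrays. The labels do not say whether the replicates were separate cultures, so p-values measure only the spread between these samples, which may be technical.

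NF-Y is a trimer of NF-YA, NF-YB and NF-YC that binds the CCAAT motif, a common element of proximal promoters, and many genes of the cell cycle carry that motif. Before S phase, the origin recognition complex together with CDC6 and CDT1 loads the MCM2-7 helicase onto DNA. The kinase CDC7 with its activator DBF4 then allows CDC45 and GINS to join the helicase. Primase and polymerase alpha start each strand, polymerases delta and epsilon extend it around the PCNA clamp, and ribonucleotide reductase supplies deoxyribonucleotides. Transcription of many of these genes peaks in late G1 or S phase under E2F factors. The RNA came from bulk cultures, in which fewer cells in one stage of the cycle and less RNA per cell cannot be told apart.

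The promoters of 6 of the genes are shown because they carry or lack the NF-Y motif next to different outcomes. Rrm2 and Orc3 fell past the minimum fold, Prim1 and Rpa3 fell by less, and Rrm1 and Mcm6 did not pass the test. Each sequence is the 250 bases before the annotated start in the RefSeq promoter table (build GRCm38.p6), written 5′ to 3′ on the strand of the gene. Capitals mark CCAAT, which reads ATTGG when it lies on the other strand. They also mark 3 cores of the kind that E2F factors bind, called E2F-like here, on either strand. These are TTGGCGC, a variant with the letters TTCGCGC, and a further variant with the letters TTCCCGC. Overlapping matches run together.
Rrm2, chr12:24708004-24708253, + strand: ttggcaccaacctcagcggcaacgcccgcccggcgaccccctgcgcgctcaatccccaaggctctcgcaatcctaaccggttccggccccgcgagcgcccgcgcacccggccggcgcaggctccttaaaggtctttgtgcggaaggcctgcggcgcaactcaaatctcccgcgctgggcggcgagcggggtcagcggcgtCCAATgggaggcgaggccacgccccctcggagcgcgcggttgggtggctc
Rrm1, chr7:102441445-102441694, + strand: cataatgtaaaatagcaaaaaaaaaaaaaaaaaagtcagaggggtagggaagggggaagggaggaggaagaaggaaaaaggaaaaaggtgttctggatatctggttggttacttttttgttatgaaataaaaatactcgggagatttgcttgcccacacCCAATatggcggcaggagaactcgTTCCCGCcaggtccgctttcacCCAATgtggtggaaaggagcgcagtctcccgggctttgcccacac
Orc3, chr4:34614943-34615192, - strand: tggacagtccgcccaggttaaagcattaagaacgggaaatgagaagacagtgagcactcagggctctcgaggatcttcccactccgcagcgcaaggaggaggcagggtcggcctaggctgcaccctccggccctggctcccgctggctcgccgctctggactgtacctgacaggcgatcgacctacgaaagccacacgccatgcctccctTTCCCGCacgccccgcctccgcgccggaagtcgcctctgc
Prim1, chr10:128014965-128015214, + strand: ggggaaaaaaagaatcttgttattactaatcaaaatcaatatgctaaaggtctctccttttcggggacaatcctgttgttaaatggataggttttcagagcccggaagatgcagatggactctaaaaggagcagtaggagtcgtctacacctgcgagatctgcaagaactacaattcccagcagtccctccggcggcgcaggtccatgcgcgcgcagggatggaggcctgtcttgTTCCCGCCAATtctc
Rpa3, chr6:8259142-8259391, - strand: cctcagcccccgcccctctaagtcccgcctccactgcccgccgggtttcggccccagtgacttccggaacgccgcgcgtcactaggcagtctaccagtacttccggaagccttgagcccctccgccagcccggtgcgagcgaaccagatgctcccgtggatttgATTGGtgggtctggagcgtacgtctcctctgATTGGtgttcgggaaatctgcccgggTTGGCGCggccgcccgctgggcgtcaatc
Mcm6, chr1:128359706-128359955, - strand: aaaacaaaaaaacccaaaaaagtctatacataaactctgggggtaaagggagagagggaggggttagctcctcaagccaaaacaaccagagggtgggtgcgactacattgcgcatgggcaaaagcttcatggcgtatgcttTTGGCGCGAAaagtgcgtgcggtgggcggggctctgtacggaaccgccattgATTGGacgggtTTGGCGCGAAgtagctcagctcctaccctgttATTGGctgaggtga
The promoter of Rrm2 held 1 CCAAT, 50 bases before the start, and no E2F-like core in these bases. Its partner Rrm1 held 2, beginning 91 and 45 bases before the start. The Orc3 promoter held no CCAAT and 1 E2F-like core. In Prim1 the single CCAAT began 9 bases before the start and shared a base with an E2F-like core. Rpa3 held 2 matches and Mcm6 also held 2, all on the other strand.

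The level of a gene is given below as the log2 intensity of its probe minus the 75th percentile of that array, and a change is the mean level of the knockdown group minus that of the control group, so a change of -1 is a halving. Where a gene had several probes, the brightest was used. Significance was taken from limma with Benjamini-Hochberg adjustment over all probes, and a gene was called when its adjusted p was below 0.05 and its fold change above 1.5. The targeted genes followed their labels. Nfyc fell from 3.97 ± 0.0338 (SD, n = 3) to 2.17 ± 0.0385 (SD, n = 3), a change of -1.81 (adjusted p = 0.000323 in limma), and Nfya fell from 0.17 ± 0.0372 (SD, n = 3) to -0.59 ± 0.0706 (SD, n = 3), a change of -0.76 (adjusted p = 0.00128 in limma). Nfyb, which encodes the untargeted subunit, rose by 0.83 with an adjusted p of 0.00131 in limma. The 75th percentile of the 6 arrays lay between 718 and 754 intensity units, 61.9% to 66.2% of the spots were well above background and no spot was saturated. Of 12 markers of neuroblastoma and neurons, 10 were well above background on all 6 arrays and Nefl on none. The summed linear signal of that list, in units of the 75th percentile, was 375 to 384 in the control arrays and 349 to 364 in the knockdown arrays. Among lists for other cells, the glial sum was 1.14 to 1.29 in the controls and 0.80 to 0.853 in the knockdown arrays, and the endothelial sum was 13.7 to 15.2 and 12.0 to 13.2. The endothelial sum was mostly the signal of Kdr (mean control level 3.84, change -0.22, adjusted p = 0.0743 in limma). Pecam1, Cdh5 and Tek had mean control levels of -2.19, -6.62 and -6.78 and changes of -0.06, 0.43 and 1.43, none past the test. The sums of the fibroblast, leukocyte and epithelial lists overlapped between the groups, and Col3a1, Lum, Cdh1, Epcam and Cdh5 were well above background on no array. Among fibroblast genes, Pdgfra was called higher (1.29, adjusted p = 0.00113 in limma) and Col1a1 lower (-0.77, adjusted p = 0.0491 in limma). Krt5 had a change of 0.26 (adjusted p = 0.0321 in limma) and Ptprc of -0.52 (adjusted p = 0.0236 in limma). The other tested fibroblast, leukocyte and epithelial genes did not pass. The part of these shifts in the results below was not tested.

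All 51 genes were well above background on all 6 arrays and all passed the filter on low values. Of these, 32 passed the test in neither direction. The median change was -0.02, against 0.01 over all genes tested, and single changes lay between -0.85 and 0.35. Of the 51 genes, 3 were called lower (Prim2, Orc3 and Rrm2), or 5.88%, near the 5.0% of all genes tested. None was called higher in limma, against 3.91% of all genes, and none passed the minimum fold upward at an unadjusted p below 0.05. Without the minimum fold, 12 of the 51 were lower at an adjusted p below 0.05 (23.5%, against 15.8% of all genes) and 7 were higher (13.7%, against 15.7%). Among the 13969 genes that were well above background on all arrays, as the members were, 18.0% were lower and 17.7% higher. For 17 genes every knockdown array lay below every control array, against 27.1% of all genes, for 14 every one lay above, against 27.7%, and for the other 20 the groups overlapped.

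**Figure D1:**
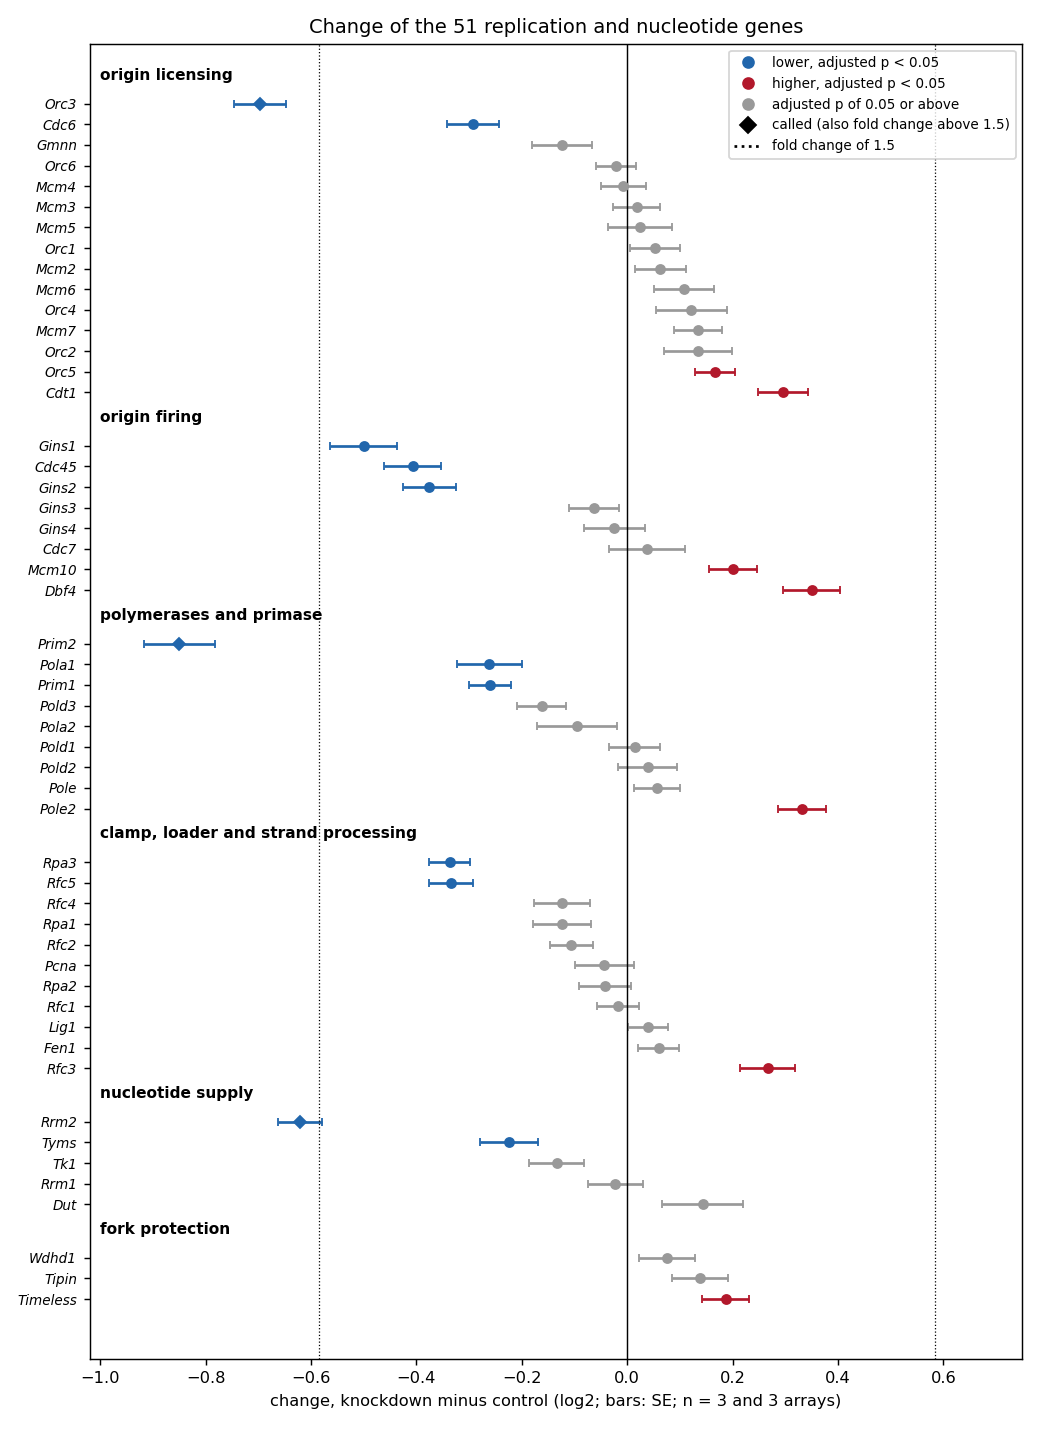
Change of each of the 51 genes (knockdown minus control, log2 scale; points are estimates of limma, bars are the SE, n = 3 and 3 arrays), ordered within the role of each gene. Prim2, Orc3 and Rrm2 lie beyond the dotted line of a 1.5-fold decrease, no gene lies beyond that of an increase, and every role except nucleotide supply and fork protection holds changes past the test in both directions.

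The arrays shared 1 slide, on which row 1 held the 3 control arrays and knockdown array 1, while row 2 held knockdown arrays 2 and 3. The contrast was therefore also computed with the row as a block, and within row 1 alone, which leaves 1 knockdown array against 3 controls and gives the same changes. Within row 1 the changes of the 3 called genes were -0.81 for Prim2, -0.74 for Orc3 and -0.58 for Rrm2. With the row as a block their adjusted p in limma was 0.0280, 0.0198 and 0.0218, and Rrm2 fell just short of the minimum fold. Within row 1 alone their adjusted p in limma was 0.0650, 0.0515 and 0.0644. The other 9 genes in the lower group kept their sign within row 1, with changes from -0.48 to -0.17, and the 7 in the higher group kept theirs, with changes from 0.15 to 0.36. None of these 16 passed the test with the row as a block in limma. Their adjusted p ran from 0.0556 to 0.255 for the lower group and from 0.0536 to 0.221 for the higher group. Over all genes, that block took the share lower from 15.8% to 6.06% and the share higher from 15.7% to 5.47%. Knockdown array 1 is also part of the contrast over 6 arrays, so the match of the signs is a description. The part of the slide row in these 16 changes was not tested further.

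**Figure D2:**
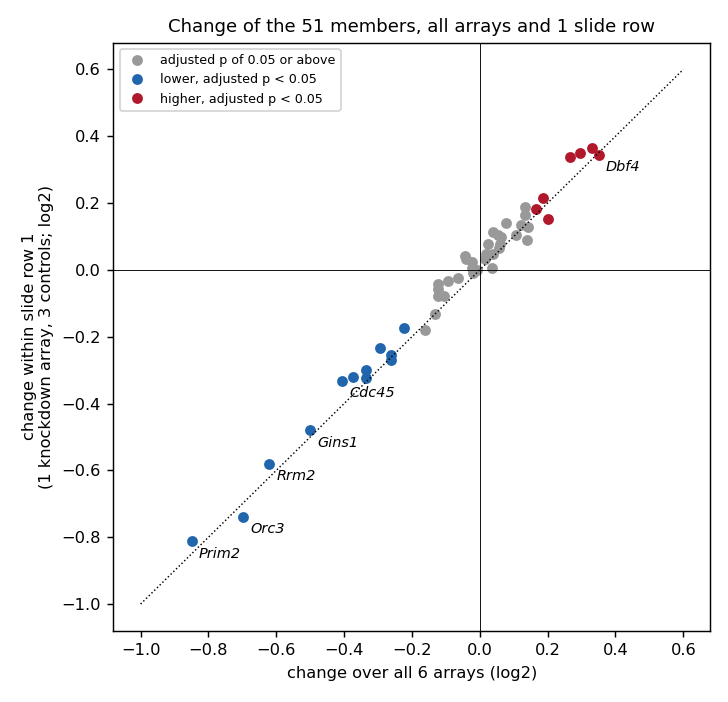
Change of each of the 51 genes within slide row 1 (vertical axis, 1 knockdown array against 3 controls, log2) against the change over all 6 arrays (horizontal axis, log2), with the dotted line at equality. The 12 genes in the lower group and the 7 in the higher group lie on the same side of 0 on both axes, and Rrm2 moves from -0.62 to -0.58.

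In origin licensing, Orc3 was the called gene. Of the 15 genes of that role, 2 were lower (Orc3 and Cdc6), 2 were higher (Cdt1 and Orc5) and the median change was 0.05. Each count is 13.3% of the role, against 15.8% (lower) and 15.7% (higher) of all genes tested. Orc3 encodes a subunit of the origin recognition complex. Its level was 2.67, 2.71 and 2.73 in the control arrays and 1.96, 1.98 and 2.08 in the knockdown arrays. The groups did not overlap, and Orc3 was 1.62-fold lower, a change of -0.70 (SE 0.050, adjusted p = 0.00128 in limma). Its other, dimmer probe gave a change of -0.64 and was called as well. Of the remaining subunits none was lower at an adjusted p below 0.05. Orc5 rose slightly, from -0.23, -0.25 and -0.23 to -0.05, -0.08 and -0.07, a change of 0.17 (adjusted p = 0.0343 in limma). Orc1, Orc2, Orc4 and Orc6 had changes between -0.02 and 0.13, none past the test, and their 95% intervals stayed within -0.12 and 0.30.

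Among the loading factors, Cdc6 and Cdt1 moved in opposite directions. Cdc6, an ATPase that recruits the helicase to the origin, had levels of 2.26, 2.21 and 2.20 in the controls and 1.99, 1.92 and 1.88 in the knockdown arrays, a change of -0.29 (adjusted p = 0.0139 in limma). Its second probe gave -0.53 with an adjusted p of 0.00245 in limma, so both probes were lower while the size differed. Cdt1, which delivers the helicase, had levels of 5.82, 5.77 and 5.78 in the controls and 6.14, 6.08 and 6.04 in the knockdown arrays. It rose by 0.30 (adjusted p = 0.0120 in limma). Gmnn, which encodes the inhibitor geminin that binds CDT1, had a change of -0.12 with an adjusted p of 0.196 in limma and overlapping groups.

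The 6 genes of the MCM2-7 helicase, which unwinds the DNA, had changes past the test in neither direction. Their changes ran from -0.01 for Mcm4 to 0.13 for Mcm7, with a median of 0.04, and the adjusted p in limma ran from 0.0979 to 0.924. The 95% intervals of all 6 stayed within -0.13 and 0.25 on the log2 scale. Mcm6 had 6.17, 6.11 and 6.26 in the controls and 6.29, 6.25 and 6.33 in the knockdown arrays, where the highest control lay above the lowest knockdown array. For Mcm7 the 3 knockdown arrays lay above the 3 controls, at 5.73, 5.70 and 5.66 against 5.54, 5.61 and 5.54. Mcm7 was higher past the test in 4 alternatives, namely a mean-variance trend in limma, quantile normalization, normexp background correction, and the last 2 together, where it was 0.29 (adjusted p = 0.00419 in limma). With these 2 together, Mcm6 also passed, at 0.23 (adjusted p = 0.0330 in limma), and no MCM2-7 gene was lower past the test in any alternative.

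Of the 8 genes of origin firing, 3 were lower, 2 were higher and none was called, with a median change of -0.04. These are 37.5% and 25% of a small group, against 15.8% and 15.7% of all genes. The decreases were in the helicase activators. Gins1 encodes a subunit of GINS, and its level was 3.64, 3.50 and 3.53 in the controls and 3.07, 3.12 and 2.97 in the knockdown arrays. It fell by 0.50 (adjusted p = 0.00613 in limma), 1.41-fold, the largest change among the genes below the minimum fold. Gins2, a second subunit, had 3.58, 3.66 and 3.59 against 3.29, 3.21 and 3.21, a change of -0.38 (adjusted p = 0.00656 in limma). Gins3 and Gins4 had changes of -0.06 and -0.02, with adjusted p of 0.399 and 0.802 in limma, so the 4 subunits did not move by like amounts. Cdc45, the third component of the active helicase, had 0.74, 0.74 and 0.79 in the controls and 0.43, 0.27 and 0.35 in the knockdown arrays, a change of -0.41 (adjusted p = 0.00687 in limma).

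The higher genes of this role were Dbf4 and Mcm10. Dbf4 rose from 0.99, 1.09 and 1.13 to 1.42, 1.40 and 1.45, a change of 0.35 (adjusted p = 0.0105 in limma) and the largest increase among the 51 genes. Cdc7, the kinase that DBF4 activates, had a change of 0.04 with an adjusted p of 0.75 in limma. Mcm10, a factor that helps the helicase to start, had 4.99, 4.93 and 4.94 in the controls and 5.11, 5.19 and 5.16 in the knockdown arrays, a change of 0.20 (adjusted p = 0.0327 in limma).

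The polymerase group held the largest decrease, that of the primase subunit Prim2. Of its 9 genes, 3 were lower (Prim2, Pola1 and Prim1), 1 was higher (Pole2) and the median change was -0.09. These are 33.3% and 11.1% of a small group, against 15.8% and 15.7% of all genes. Prim2, the large subunit of the primase that lays down the RNA primers, had levels of 2.17, 2.27 and 2.34 in the controls and 1.45, 1.33 and 1.46 in the knockdown arrays. All knockdown arrays lay well below all controls, and Prim2 was 1.80-fold lower, a change of -0.85 (SE 0.068, adjusted p = 0.00163 in limma). Prim1, the catalytic subunit, had 5.29, 5.33 and 5.33 against 5.06, 5.07 and 5.04. It fell by 0.26 (adjusted p = 0.0101 in limma), against 0.85 for Prim2. Pola1, the catalytic subunit of polymerase alpha, had 1.31, 1.32 and 1.47 in the controls and 1.1, 1.07 and 1.14 in the knockdown arrays, a change of -0.26 (adjusted p = 0.0362 in limma). Pola2 had a change of -0.09 with overlapping groups.

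Among the polymerases that extend the strands, 1 gene passed the test, and it rose. Pole2, the second subunit of polymerase epsilon, had 2.55, 2.54 and 2.59 in the controls and 2.92, 2.84 and 2.91 in the knockdown arrays, and rose by 0.33 (adjusted p = 0.00716 in limma). Pole, its catalytic subunit, had a change of 0.06 (adjusted p = 0.407 in limma), and the second Pole probe gave 0.32 with a large SE of 0.14. The polymerase delta genes Pold1, Pold2 and Pold3 had changes of 0.01, 0.04 and -0.16, none past the test.

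Among the 11 genes of the clamp, its loader and strand processing, 2 were lower, 1 was higher and none was called, with a median change of -0.04. The shares were 18.2% lower and 9.09% higher, against 15.8% and 15.7% of all genes. Rpa3 encodes the smallest subunit of RPA, which covers single-stranded DNA. Its level was 5.02, 5.0 and 5.04 in the controls and 4.70, 4.66 and 4.69 in the knockdown arrays, a change of -0.34 (adjusted p = 0.00455 in limma). Rpa1 and Rpa2 had changes of -0.12 and -0.04, neither past the test.

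Replication factor C, which opens the PCNA clamp and loads it onto DNA, held changes in both directions. Rfc5 had 4.91, 4.88 and 4.88 in the controls and 4.59, 4.52 and 4.56 in the knockdown arrays, a change of -0.33 (adjusted p = 0.00582 in limma). Rfc3 had 2.32, 2.29 and 2.24 against 2.62, 2.53 and 2.50, and rose by 0.27 (adjusted p = 0.0215 in limma). Rfc1, Rfc2 and Rfc4 had changes between -0.12 and -0.02 that did not pass. The clamp Pcna, with 5.51, 5.48 and 5.53 in the controls and 5.55, 5.45 and 5.39 in the knockdown arrays, had a change of -0.04 and overlapping groups. Fen1 and Lig1, the nuclease and ligase that join Okazaki fragments, had changes of 0.06 and 0.04.

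In nucleotide supply, 2 of 5 genes were lower, none was higher and the median change was -0.13. The share lower was 40% of a small group, against 15.8% of all genes, of which 15.7% were higher. Rrm2 is the small subunit of ribonucleotide reductase, whose amount varies with the cell cycle. It had levels of 4.27, 4.22 and 4.25 in the controls and 3.67, 3.61 and 3.60 in the knockdown arrays. The knockdown arrays lay close together and all below the controls, and Rrm2 was 1.54-fold lower, a change of -0.62 (SE 0.042, adjusted p = 0.00112 in limma). The change lay close to the minimum fold, and with quantile normalization it was -0.57, with normexp background correction also -0.57, and with both -0.53, each under that fold. Rrm1, the large subunit, had 5.07, 5.03 and 5.10 in the controls and 5.07, 4.97 and 5.09 in the knockdown arrays, a change of -0.02 with a 95% interval of -0.15 to 0.11.

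Tyms, thymidylate synthase, had -0.63, -0.70 and -0.76 in the controls and -0.87, -0.93 and -0.96 in the knockdown arrays, a change of -0.22 (adjusted p = 0.0409 in limma). Tk1, the cytosolic thymidine kinase of the salvage route, had 4.92, 4.84 and 4.77 against 4.71, 4.71 and 4.71. Its change of -0.13 did not pass (adjusted p = 0.135 in limma). Dut, the dUTPase that keeps uracil out of DNA, had a change of 0.14 with overlapping groups (adjusted p = 0.253 in limma).

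The 3 fork protection genes had changes above 0, of which 1 passed (33.3% of the role, against 15.7% of all genes higher). Timeless had 3.07, 3.0 and 2.98 in the controls and 3.23, 3.18 and 3.20 in the knockdown arrays, a change of 0.19 (adjusted p = 0.0398 in limma). A second, dimmer Timeless probe gave a change of -0.01 with an adjusted p of 0.968 in limma, so the increase was seen with 1 of the probes. Tipin, the partner of TIMELESS, had a change of 0.14 (adjusted p = 0.135 in limma), and Wdhd1, which couples the helicase to polymerase alpha, had 0.08.

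**Figure D3:**
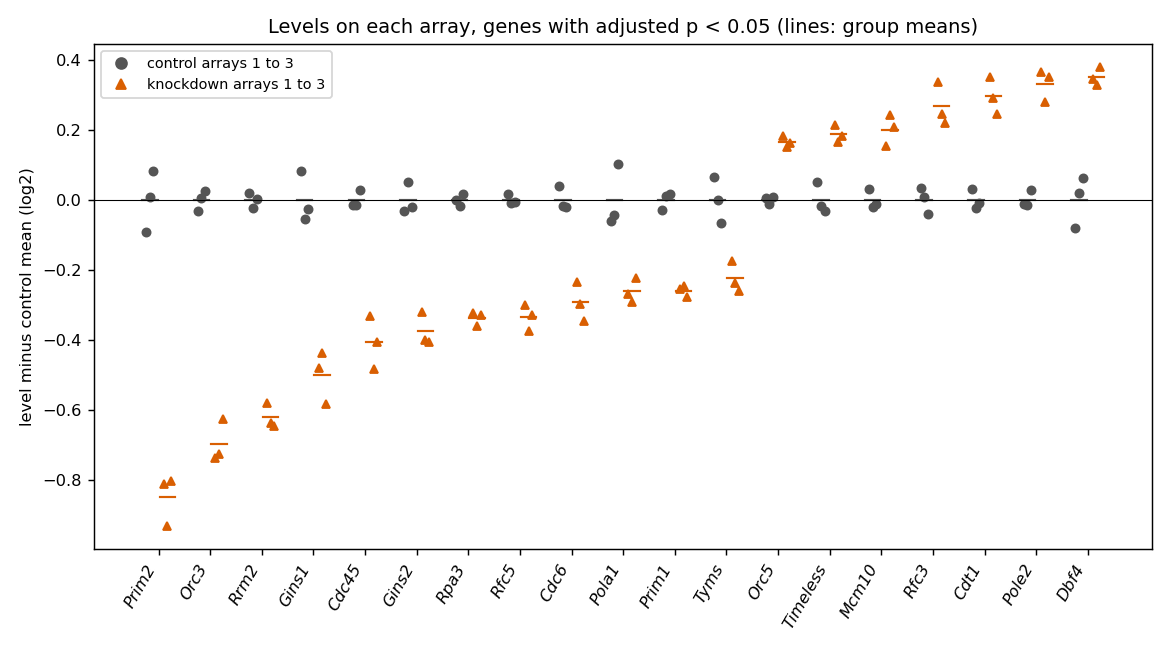
Level of the 19 genes past an adjusted p of 0.05 on each array, as the difference from the mean of the 3 control arrays (log2); circles are control arrays, triangles knockdown arrays and short lines group means. The knockdown arrays of Prim2 lie near -0.85 and those of Dbf4 near 0.35, and for none of the 19 genes do the groups overlap. The genes were picked by their adjusted p on these same arrays, so that separation is a description.

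Several partners in one complex or reaction moved by different amounts, so the log2 ratio of 11 pairs was compared within each array, where the scaling constant of the array cancels. An exact permutation test (two-sided, over the 20 assignments of the arrays) cannot give a p below 0.1 with 3 against 3 arrays, so no pair could pass. The ratio of Rrm1 to Rrm2 was 0.81, 0.80 and 0.85 in the controls and 1.41, 1.36 and 1.49 in the knockdown arrays, a difference of 0.60. The ratio of Prim1 to Prim2 differed by 0.59, with 3.12, 3.06 and 2.99 in the controls and 3.62, 3.74 and 3.58 in the knockdown arrays. These were the widest shifts between partners.

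The ratio of Cdt1 to its inhibitor Gmnn differed by 0.42, from 3.88, 3.96 and 3.85 to 4.33, 4.33 and 4.29. The ratio of Cdc6 to Orc1 differed by -0.35, that of Cdc7 to Dbf4 by -0.31, that of Pole to Pole2 by -0.27 and that of Tyms to Tk1 by -0.09. In these 7 pairs the groups did not overlap, at the smallest exact p the design allows (0.1, adjusted 0.157 over the 11 pairs). Single genes with no overlap between the groups made up 27.1% (below) and 27.7% (above) of all genes. Those shares are for each direction alone, while the 7 pairs count both directions. No such share was computed for ratios between genes. The ratio of Pola1 to Pola2 differed by -0.17 with overlapping groups (exact p = 0.3, adjusted 0.413). Fen1 to Lig1 (0.02), Tipin to Timeless (-0.05) and Pold1 to Pold2 (-0.02) also overlapped, with exact p of 0.5, 0.5 and 0.6. Several of the pairs were of genes already seen to differ, so the ratios restate the single changes on a scale free of the array constant.

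**Figure D4:**
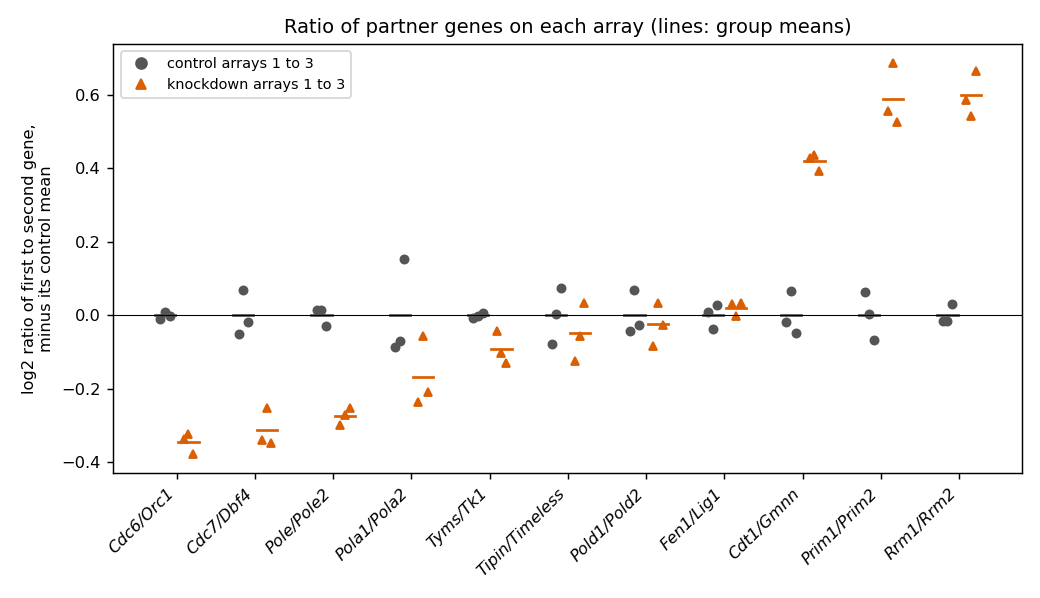
Log2 ratio of the first to the second gene of 11 pairs on each array, as the difference from the mean of the 3 control arrays; circles are control arrays, triangles knockdown arrays and lines group means. Rrm1/Rrm2 and Prim1/Prim2 lie near 0.60 in the knockdown arrays, Cdc6/Orc1 lies near -0.35, and the groups overlap for Pola1/Pola2, Tipin/Timeless, Pold1/Pold2 and Fen1/Lig1.

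Genes outside the 51 that serve the same processes were read in the same way. Of 32 other replication genes, all tested, 9 were lower, 4 were higher and the median change was -0.05. The only called gene there was Pold4, the small accessory subunit of polymerase delta. Its level was 0.01, -0.17 and -0.21 in the controls and -1.32, -1.46 and -1.49 in the knockdown arrays, a change of -1.30 (adjusted p = 0.000932 in limma), larger than that of any of the 51 genes. Of 35 other genes of nucleotide synthesis and salvage, 8 were lower, 2 were higher and 3 were called lower, with a median of -0.04. Among these were Dck (-0.89, adjusted p = 0.00177 in limma), the kinase that salvages deoxycytidine, and Mthfd1 (-0.67, adjusted p = 0.00149 in limma), an enzyme of the folate cycle.

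The stage after replication was set beside these lists. Of 29 mitotic genes, 8 were lower, 3 were higher and 2 were called lower, and the median change was -0.06. Aurkb, the kinase of the chromosomal passenger complex, had -2.45, -2.52 and -2.40 in the controls and -4.03, -4.31 and -4.15 in the knockdown arrays, a change of -1.70 (adjusted p = 0.000543 in limma). Cdc25c, a phosphatase that activates CDK1 at mitotic entry, had a change of -1.09 (adjusted p = 0.000374 in limma). The called lower shares of the replication, nucleotide and mitotic lists were 3.12%, 8.57% and 6.9%, near the 5.0% of all genes tested. Without the minimum fold, 28.1%, 22.9% and 27.6% were lower, against 15.8% of all genes, and 12.5%, 5.71% and 10.3% were higher, against 15.7%. All genes of these lists were well above background on all 6 arrays. Among all genes with that property, 18.0% were lower and 17.7% higher. No gene of these lists was called higher.

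The NF-Y motif was then counted in the RefSeq promoter windows (250 bases before to 50 bases after the start, build GRCm38.p6), on both strands. A window was found for 42 of the 51 genes, and none for Tipin, Gins1, Pole, Gins4, Gins2, Gmnn, Prim2, Mcm4 and Rfc2. CCAAT was present in 23 of the 42 (54.8%), against 42.6% of the genes tested that had a window and 41.1% of all 27025 promoters. An E2F-like core was present in 25 of the 42 (59.5%), against 14.2% of the genes tested and 9.2% of all promoters. These cores can overlap each other and CCAAT.

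Genes with the motif were found in each direction and among those past no threshold. CCAAT was present in 5 of 9 genes in the lower group with a window (Rrm2, Cdc45, Rpa3, Pola1 and Prim1), in 2 of 7 in the higher group (Mcm10 and Rfc3) and in 16 of 26 that passed no threshold. All 5 MCM2-7 genes with a window held it, and none of them changed past the test in the main normalization. The RPA genes held it as well, 3 of 3, of which only Rpa3 was lower. Rrm1 held more matches than Rrm2, while Rrm2 fell and Rrm1 did not pass the test. These are matches of letters and not measured binding, and the numbers are small.

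**Figure D5:**
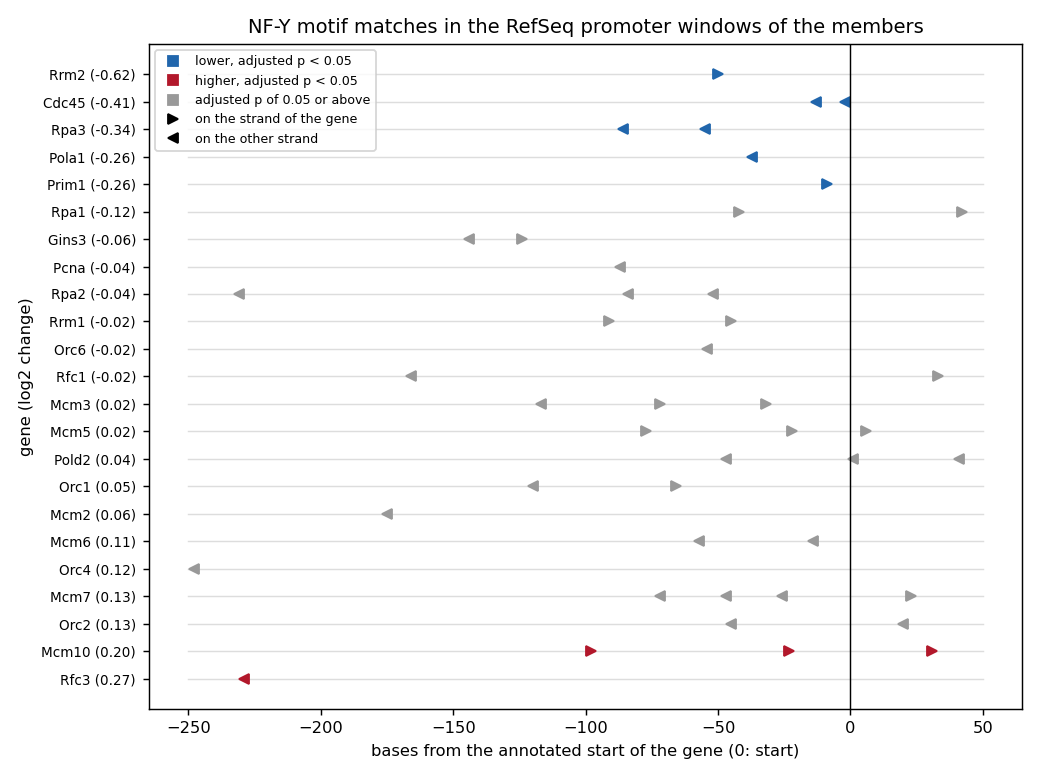
Position of the NF-Y motif in the RefSeq promoter windows of the 23 genes that hold it, in bases from the annotated start (0), with genes ordered by their change (log2, in brackets) and with the windows of genes that have several drawn together. Most matches lie between 100 bases before the start and the start itself, both in genes of the lower group such as Rrm2 (50 bases before) and in genes past no threshold such as Rrm1 (91 and 45 bases before).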

How the data were processed

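Gene expression in N2a cells was measured on 6 one-colour Agilent arrays, 3 per group, and the groups were taken from the sample titles. The deposited scanner tables hold spot intensity, which the authors extracted with Agilent Feature Extraction 10.10.1.1 and which is background-subtracted (processed signal). The deposited series matrix holds log2 values, used as an alternative. Differences between arrays in it matched those computed here within 0.0075 over 43742 probes, so its scale is settled, while its centring constant was not used. The files lacked the mean signal, so normexp (offset 50), an alternative, used the median signal and median background.

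Control spots and outlier-flagged spots were left out, spots of a probe were averaged, and log2 intensity minus the 75th percentile of each array was tested with limma 3.58.1 (R 4.3.3; lmFit and eBayes, two-sided). Of 55681 probes, 245 had a missing value. A probe was tested (42126 were) when it reached the 20th percentile of the array on all 3 arrays of a group. The p-values were adjusted over these probes. Probes were matched by accession to RefSeq genes of GRCm38.p6 (26582 probes, 20145 genes), a table not of the array's own build, so array coordinates were not used. The 51 genes had 58 probes, and 7 genes had more than 1. The number of arrays limits the precision.

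The members, lists and pairs were chosen with earlier results of these data known. Named genes were the NF-Y subunits, called members, the 3 largest changes of each role, both genes of each pair, the 10 largest changes under the minimum fold and called genes of the other lists, of which 1 is not reported here; Orc5, Mcm6, Mcm7, Pcna and the other members named beside them fall outside this rule and were chosen after their values were seen. The limma steps were tested on simulated data. Alternatives were other normalizations, background correction, filters, probe rules, a fold of 2, variance models, blocks and leaving out each array.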

Additional observations from a re-analysis of the deposited data

How the results depend on the processing

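The 3 calls were made again in each of the 6 fits that left out 1 array, and Orc3 and Prim2 were not called only with a fold of 2 and within slide row 1. Over 20 alternatives their changes ran from -0.74 to -0.64 and from -0.90 to -0.70. Rrm2 (-0.64 to -0.53) also lost its call with the normalizations named above and with the slide row as a block (-0.58). In limma the adjusted p of the 3 genes did not exceed 0.0650 in any alternative. A fold of 2 left 0 members called lower, and so did the comparison within slide row 1. The number lower at an adjusted p below 0.05 was 12 (all genes: 15.8%), against 3 with the row as a block (all genes: 6.06%). At an unadjusted p below 0.05 in limma, 11 were lower and 6 higher with the row as a block. Without single arrays the number lower at an adjusted p below 0.05 was 9 to 10 (all genes: 10% to 12.2%). With a mean-variance trend it was 17 (all genes: 20.9%), and with the filter on signal above background 13 (all genes: 20.4%). The number higher at an adjusted p below 0.05 was 7 (all genes: 15.7%). It was 3 with the replicate block (all genes: 8.05%) and 0 with the row as a block (all genes: 5.47%). Leaving out any 1 of the 6 arrays lowered it to 2 to 3 (all genes: 9.21% to 11.5%). Without a filter it was 4, and the share of all genes was also below 15.7%. It rose to 10 with normexp and quantile normalization (all genes: 20.4%). With quantile normalization it was 9 (all genes: 18.2%), and with a mean-variance trend also 9 (all genes: 21.1%). In each of these settings the count and the share of all genes moved in the same direction from the main fit. All 19 kept their sign in the 19 alternatives with a refit, but Orc5 passed in 7 of them, Timeless in 8, and Pola1, Tyms and Mcm10 in 9. The 19 genes were picked by their adjusted p on these same arrays, so the kept sign is a description. Some genes past no threshold, such as Orc2, Gmnn and Pole, also kept their sign in all 19 alternatives, while Mcm4 kept it in 12. Of genes past no threshold, Mcm6, Mcm7, Orc2, Fen1 and Tipin were higher past the test with at least 1 other normalization or background correction, and Pold3, Rfc2, Rfc4, Rpa1 and Tk1 were lower past it with a mean-variance trend. The median change of the members was -0.02, against 0.035 with quantile normalization, 0.024 with the row as a block and 0.024 within row 1, so its sign is not settled. The ratio of Tipin to Timeless was 0.03 with normexp in place of -0.05, and that of Pold1 to Pold2 lay above 0, at up to 0.0094, without control array 2 or knockdown array 1. The cause of these shifts was not tested.

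Over all genes, 824 were called lower and 644 higher, against 584 and 275 with normexp, 557 and 282 with normexp and quantile normalization, 318 and 268 within row 1, and 286 and 181 with a fold of 2. The deviations of same-numbered arrays from their group means correlated at 0.02, 0.07 and 0.0025, and those of arrays with different numbers at -0.08 to 0.06. These values cannot show whether the replicate numbers pair the samples, and the labels do not say. The replicate block left 3 members called lower (all genes: 4.64%) and 0 higher (all genes: 3.14%). At an adjusted p below 0.05 it left 9 members lower (all genes: 9.72%) and 3 higher (all genes: 8.05%).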
